A study of Mus musculus with 12 samples.

Results

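The 10 genes described here are immediate early genes, followed through berberine treatment of mouse fat cells: the EGR genes Egr1 and Egr2, the FOS genes Fos, Fosb, Fosl1 and Fosl2, the JUN genes Jun and Junb, and the early response genes Ier3 and Myc. They were taken by name, as the probe sets that the platform annotation pairs with 1 of these symbols alone, which gave 14 probe sets for the 10 genes, out of 34945 probe sets with a single symbol and 18193 genes in the whole series. The cells were 3T3-L1, a line of mouse fibroblasts that turn into fat cells when induced, here for 48 h, with IBMX (0.5 mM), dexamethasone (1 µM) and insulin (5 µg/ml). On days 8 to 10 they were moved to serum-free medium with 0.2% albumin for 12 h. All 4 groups share this history: 3 arrays of cells given the solvent DMSO, and 3 arrays each of cells exposed for 3, 6 or 12 h to the plant alkaloid berberine at 5 µM. How long the DMSO cells were incubated is not given in the sources used here, so an effect of berberine and one of time in culture cannot be told apart in the contrasts with DMSO. Those contrasts also share the same 3 DMSO arrays. The contrasts between exposure times have no DMSO group for each time, so they too may reflect time in culture.

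Immediate early genes are the first to be transcribed when a growth factor, hormone or stress reaches a cell, because the factors that switch them on (SRF with its ETS partners, CREB, and ATF or JUN proteins) are already present and are activated by MAP kinases. FOS and JUN proteins pair through a leucine zipper to form the AP-1 transcription factor, EGR proteins bind DNA through zinc fingers, and MYC pairs with MAX to bind E-boxes. In 3T3-L1 cells Fos, Jun, Egr2 and Myc are known to respond within hours to the differentiation cocktail. The cells studied here were differentiated and had been without serum.

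The values are log2 MAS5 signals, and 5.77 on that scale, the median of all probe sets, was used as a detection threshold. A gene was tested if a probe set of it reached the threshold on at least 3 of 12 arrays, and was then represented by its brightest such probe set. Of the 10 genes 9 met this, among 12136 genes tested in all. Fosb stayed under the threshold on all 12 arrays. A change is described as called where limma's p, adjusted over all genes tested, was under 0.05. The labels do not say that the 3 arrays of a group came from separate cultures, so p-values here reflect the spread among these arrays alone, and that spread may be technical; 3 arrays per group limit the precision.

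The 3'-to-5' difference of Gapdh lay between -0.16 and 0.03 on the log2 scale, that of actin was 1.56 to 1.72 with DMSO and 1.51 to 1.58 at 12 h, and between 47.9% and 51.6% of probe sets reached the threshold. The log2 signal of the spike control creX was 14.78 to 15.11 with DMSO, 15.07 to 15.10 at 3 h, 15.14 to 15.40 at 6 h and 15.09 to 15.25 at 12 h, so that DMSO and 6 h did not overlap. All 9 of the 10 adipocyte markers that could be matched were measured on every array, with log2 signals of 15.05 to 15.62 for Adipoq. So were all 7 matched preadipocyte and fibroblast markers. The summed linear signal of the adipocyte markers was 161000 to 202000 with DMSO, 186000 to 207000 at 3 h, 198000 to 215000 at 6 h and 179000 to 194000 at 12 h. That of the fibroblast markers was 80900 to 96300 with DMSO and 93200 to 100000 over the 3 berberine groups. Of the 9 adipocyte markers 0 were called as higher and 1 as lower than with DMSO at 3 h, 4 and 3 at 6 h, and 1 and 4 at 12 h. Of the 7 fibroblast markers 0 were called at 3 h, 2 as higher and 2 as lower at 6 h, and 1 and 2 at 12 h. Of all genes tested 1.90%, 14.2% and 28.2% were called at 3, 6 and 12 h. Of 5 macrophage markers Csf1r reached the threshold on all 12 arrays (6.99 to 7.63), Cd68 on 10 and Adgre1 on 2, while Ptprc and Itgam were under it on all 12. Of 4 endothelial markers Kdr reached it on 4 arrays and Pecam1 on 1, and Cdh5 and Tek on 0. The summed linear signal of the macrophage markers was 260 to 293 with DMSO and 256 to 401 over the berberine groups, and that of the endothelial markers 83.4 to 125 and 55.1 to 172; of the 3 of these 9 genes tested, 0 were called at any time. In these bulk samples fewer cells of a type and less RNA per cell cannot be told apart, and the part of the marker shifts in the results was not tested.

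RefSeq's promoter table (build GRCm38.p6) held 7 of the 10 genes. The 250 bases before the start are shown for Jun, called at 3 h, and for Fos, the founding member of the AP-1 family. Capitals mark matches to the motifs searched on both strands.
Jun, chr4:95052223-95052472, minus strand: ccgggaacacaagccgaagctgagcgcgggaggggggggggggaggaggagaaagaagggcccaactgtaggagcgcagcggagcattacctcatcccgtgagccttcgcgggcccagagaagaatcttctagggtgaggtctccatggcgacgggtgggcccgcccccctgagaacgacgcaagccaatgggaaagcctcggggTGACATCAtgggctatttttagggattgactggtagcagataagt
Fos, chr12:85473640-85473889, plus strand: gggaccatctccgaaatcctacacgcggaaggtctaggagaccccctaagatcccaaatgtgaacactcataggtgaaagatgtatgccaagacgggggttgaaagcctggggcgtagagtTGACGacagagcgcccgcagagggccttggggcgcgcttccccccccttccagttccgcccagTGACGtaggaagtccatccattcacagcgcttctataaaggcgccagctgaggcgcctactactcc
For Egr2, the gene with a CArG box among the 7, the 30 bases from its CArG box are shown.
Egr2, chr10:67537797-67537826, plus strand: CCATATATGGgcagcgaCGTCAcgggtatt
The Jun window held the jun-type AP-1 site TGACATCA, 45 to 38 bases before the start. This motif was added after the sequence was seen, and 2.93% of all 32851 promoter windows of the same length hold it. The CArG box, the site of SRF, was in 1 of 7 genes, Egr2, and in 1.47% of all windows. The shorter site TGACG of the cAMP response element was in Egr2, Fos, Fosb and Junb, 4 of 7 genes, and in 17.8% of all windows; the full element TGACGTCA, which contains the shorter one, was in none of the 7 and in 1.55% of all windows. An EGR site (GCGTGGGCG or GCGGGGGCG) was in Fosb and Fosl2, 2 of 7 genes, and in 3.06% of all windows. The classical AP-1 site TGACTCA (4.46% of all windows) and the E-box CACGTG (6.02%) were in none of the 7. No windows were at hand for Egr1, Fosl1 and Myc, Egr2 was read at 1 of its 5 starts, and a match describes these letters only. Bases further than 250 before the start were not searched, so a motif absent here may lie outside the window.

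After 3 h of berberine Jun was higher than with DMSO, and the 8 other tested genes were not called. No berberine array was taken before 3 h, so changes that came and went earlier could not be seen. After 6 h Egr1, Ier3 and Myc were lower. In their brightest probe sets Jun was also higher at 6 h and Fosl2 lower, but the second probe set of Jun was not called and that of Fosl2 had the opposite sign. After 12 h Egr1, Egr2, Fosl1 and Myc were lower and Ier3 was higher. Of 19 alternative settings, described below, the call of Fosl1 at 12 h was lost in 3. Those of Ier3 at 6 and 12 h were lost in 6 and 4. In counts, 1 of 9 genes was called at 3 h (1.90% of all genes tested), 5 of 9 at 6 h (14.2%) and 5 of 9 at 12 h (28.2%). Those called as lower numbered 0, 4 and 4, against 0.816%, 6.98% and 14.6% of all genes, and 1 was called as higher at each time, against 1.09%, 7.24% and 13.7%. The median log2 change of the 9 genes was -0.40, -0.44 and -0.57 at 3, 6 and 12 h, and that of all genes tested 0.02, 0.01 and -0.01. Berberine and DMSO arrays did not overlap in 6, 7 and 8 of the 9 genes, against 19.0%, 29.9% and 39.4% of all genes. By the F test over the 3 contrasts 7 of 9 genes changed (25.1% of all genes), with Fos and Junb not called. The count at 3 h rose to 2 without DMSO replicate 2, DMSO replicate 3, 3 h replicate 3 or 6 h replicate 3. That at 6 h was 3 when the probe sets of a gene were averaged, and that at 12 h was 3 without the intensity trend of the test.

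**Figure D1:**
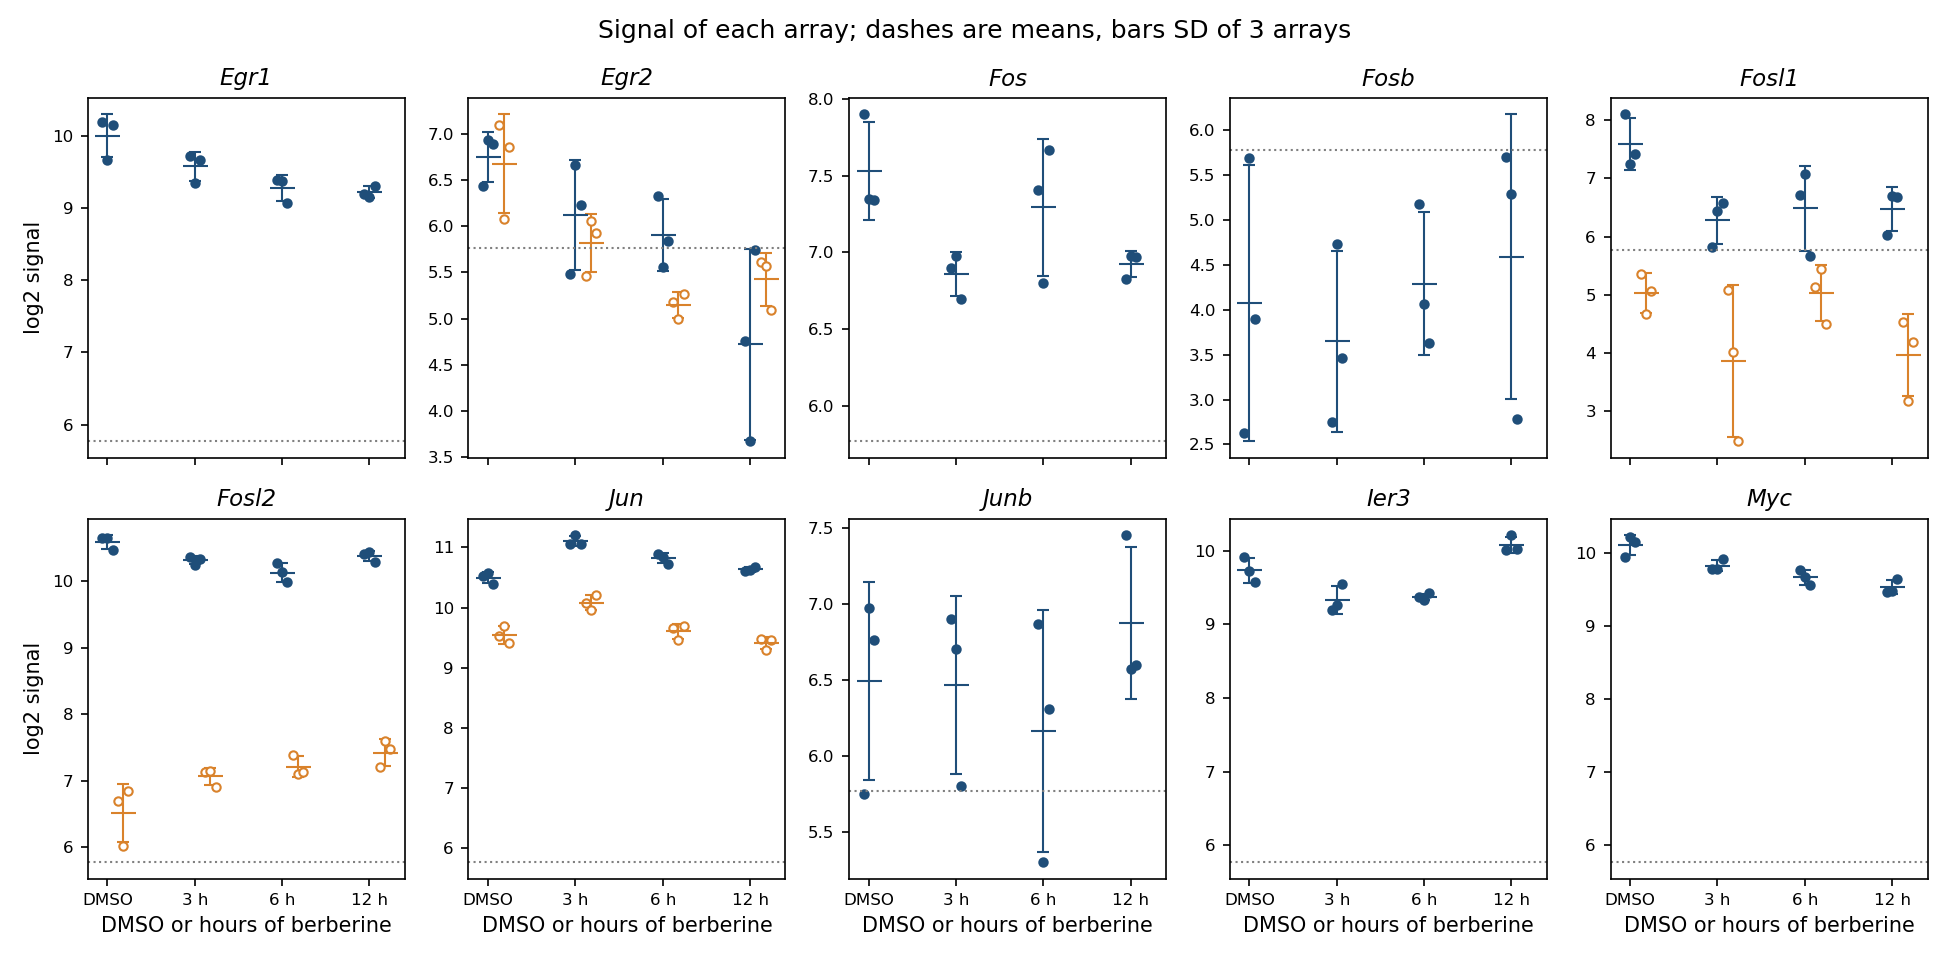
Log2 signal (y axis) of each array by group (x axis: DMSO or hours of berberine) for the 10 genes; points are arrays, dashes means and bars SD of 3 arrays. Blue filled points are the brighter probe set and orange open points the other one, the dotted line is the threshold of 5.77, and each panel has its own y range; Jun is highest at 3 h, Egr1 and Myc are lowest at 12 h, and Fosb lies under the line on all 12 arrays.

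Jun, the AP-1 subunit that is the main target of JNK, had log2 signals of 10.52, 10.57 and 10.39 with DMSO and 11.05, 11.20 and 11.06 at 3 h. At 6 h they were 10.89, 10.84 and 10.73, and at 12 h 10.61, 10.62 and 10.68. In this brightest probe set the 4 groups did not overlap with each other, with 3 h on top, then 6 h, 12 h and DMSO. Jun rose 1.53-fold at 3 h (log2 change 0.61 ± 0.07 SE, adjusted p = 0.000178) and was 1.26-fold higher at 6 h (0.33 ± 0.07, adjusted p = 0.00533). At 12 h the log2 change was 0.14 (95% confidence interval -0.01 to 0.30, adjusted p = 0.155), so it was not called there. From 3 to 12 h Jun fell by 0.47 on the log2 scale (adjusted p = 0.000196; 17.7% of all genes were called in this contrast). Its fall from 3 to 6 h, by 0.28, had an adjusted p of 0.0483 (2.34% of all genes called), a call that ended without any 1 of 10 of the 12 arrays (adjusted p of 0.0532 to 0.194). The neighbours 6 and 12 h did not differ past the threshold (adjusted p = 0.155).

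A second Jun probe set gave 9.53, 9.70 and 9.41 with DMSO and 10.07, 9.96 and 10.21 at 3 h. In a fit of all 21706 kept probe sets it had a log2 change of 0.53 at 3 h (adjusted p = 0.0145; 1.13% of these probe sets were called). At 6 h its change was 0.06 (adjusted p = 0.803), and with the mean of both probe sets the 6 h rise of Jun was not called (0.19, adjusted p = 0.118). At 12 h the second probe set changed by -0.13 (adjusted p = 0.393) and the brightest by 0.14, with neither called. In the second one the arrays of 6 and 12 h overlapped those of DMSO. Both probe sets therefore show Jun highest at 3 h. They differ on whether it was still raised at 6 h, and in the sign of the uncalled change at 12 h.

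Junb, a JUN protein that often opposes Jun, was close to the threshold, with 5.75, 6.97 and 6.76 with DMSO, 6.90, 6.70 and 5.80 at 3 h, 6.87, 5.30 and 6.31 at 6 h, and 7.45, 6.57 and 6.60 at 12 h. The arrays of every group overlapped those of every other. Its log2 change of -0.03 at 3 h had a 95% confidence interval of -0.95 to 0.89, and that of 0.38 at 12 h one of -0.54 to 1.30. Changes of Junb within these intervals were not detectable at this precision.

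Egr1, the zinc finger factor that serum and growth factors induce most widely, had 10.19, 9.66 and 10.15 with DMSO and 9.72, 9.34 and 9.66 at 3 h. It had 9.39, 9.37 and 9.07 at 6 h, and 9.19, 9.15 and 9.31 at 12 h. Every array of 6 and 12 h lay below all 3 DMSO arrays, while 3 h overlapped DMSO through DMSO replicate 2. Egr1 was 1.65-fold lower at 6 h (log2 change -0.72 ± 0.14 SE, adjusted p = 0.00179) and 1.72-fold lower at 12 h (-0.79 ± 0.14, adjusted p = 0.000306). At 3 h its change of -0.43 was not called (adjusted p = 0.135), and was -0.60 with an adjusted p of 0.0174 without DMSO replicate 2. Neither 6 against 3 h (adjusted p = 0.296) nor 12 against 6 h (adjusted p = 0.859) was called.

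Egr2, also called Krox20, which is known to promote early fat cell differentiation, had 6.44, 6.93 and 6.89 with DMSO and 5.48, 6.66 and 6.23 at 3 h. At 6 h it had 6.33, 5.56 and 5.84, and at 12 h 4.76, 3.67 and 5.74, which put all 12 h arrays under the threshold. It fell at 12 h (log2 change -2.03 ± 0.50 SE, adjusted p = 0.00537), and as the values under the threshold give only a bound, it was at least 1.97-fold lower. With such values raised to the threshold the change was -0.98. Its changes at 3 h (-0.63) and 6 h (-0.84) were not called, with adjusted p of 0.648 and 0.308. With dim values raised to the threshold, however, the 6 h change was -0.77 and was called (adjusted p = 0.034). The other Egr2 probe set had 7.10, 6.08 and 6.86 with DMSO and 5.18, 4.99 and 5.27 at 6 h. It was at least 1.88-fold lower at 6 h (adjusted p = 0.023; 11.2% of the kept probe sets called) and at least 1.88-fold lower at 12 h (adjusted p = 0.0331; 25.1%). Both probe sets were lower at 12 h, and with the values as deposited they differ on whether the fall was called at 6 h.

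**Figure D2:**
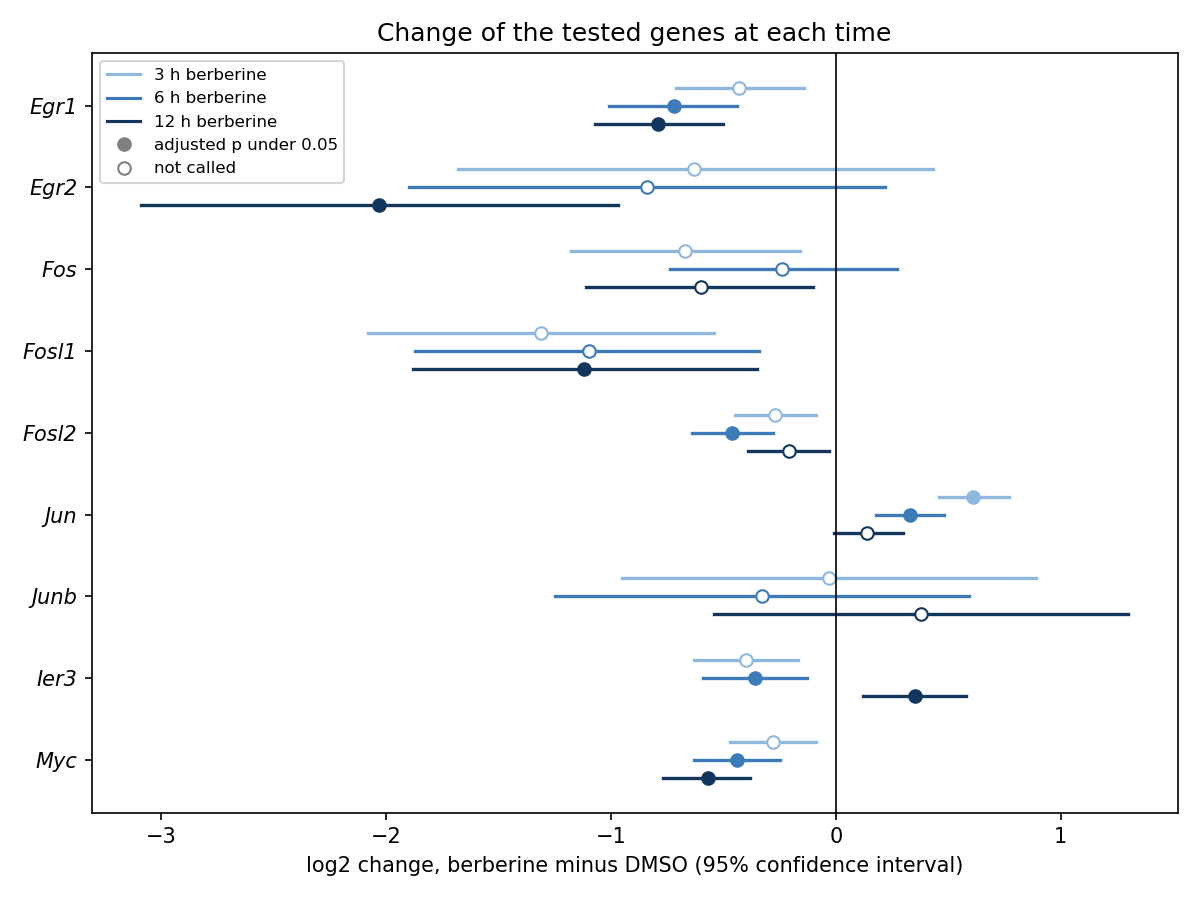
Log2 change against DMSO (x axis, in log2 units) of the 9 tested genes (y axis) after 3, 6 and 12 h of berberine, with 95% confidence intervals from limma over 12 arrays. Filled points were called at an adjusted p under 0.05: Jun at 3 and 6 h and Ier3 at 12 h lie to the right of 0, and the other filled points lie to the left.

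Of the FOS genes tested, Fosl1 was lower at 12 h, Fosl2 had probe sets of opposite sign, and Fos was not called. Fos had 7.90, 7.35 and 7.34 with DMSO, 6.90, 6.98 and 6.70 at 3 h, 7.41, 6.80 and 7.67 at 6 h, and 6.83, 6.98 and 6.97 at 12 h. All arrays of 3 and 12 h lay below those of DMSO, and 6 h overlapped them. Its log2 changes were -0.67 at 3 h (95% confidence interval -1.18 to -0.16, adjusted p = 0.196), -0.24 at 6 h (adjusted p = 0.595) and -0.60 at 12 h (-1.11 to -0.10, adjusted p = 0.0721).

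Fosl1, which encodes FRA1, a FOS protein without a strong activation domain of its own, had 8.10, 7.25 and 7.41 with DMSO and 5.82, 6.44 and 6.57 at 3 h. It had 6.72, 7.07 and 5.66 at 6 h and 6.03, 6.70 and 6.68 at 12 h. All 9 berberine arrays lay below the 3 DMSO arrays, and the 3 berberine groups overlapped each other. Its log2 changes were -1.31 ± 0.36 at 3 h (SE, adjusted p = 0.0802), -1.10 ± 0.36 at 6 h (adjusted p = 0.0515) and -1.12 ± 0.36 at 12 h (adjusted p = 0.0286), so the 12 h difference alone was called, as a 2.17-fold fall. Leaving out DMSO replicate 1 ended that call (adjusted p = 0.153), as did leaving out 12 h replicate 1 (0.115) and dropping the intensity trend (0.0639). A test that one time differs from another found nothing, with adjusted p of 0.847, 0.992 and 0.786 for 6 against 3 h, 12 against 6 h and 12 against 3 h. The other Fosl1 probe set stayed under the threshold, at 2.48 to 5.44 over the 12 arrays.

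Fosl2, which encodes FRA2, gave opposite answers in its 2 probe sets. The bright one had 10.65, 10.65 and 10.47 with DMSO, 10.37, 10.25 and 10.34 at 3 h, 10.27, 10.14 and 9.99 at 6 h, and 10.42, 10.44 and 10.29 at 12 h. All berberine arrays lay below those of DMSO, and Fosl2 in this probe set fell 1.38-fold at 6 h (log2 change -0.46 ± 0.08 SE, adjusted p = 0.00145). At 3 and 12 h it was not called (-0.27 and -0.21, adjusted p = 0.123 and 0.0775).

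The dim Fosl2 probe set had 6.69, 6.02 and 6.84 with DMSO, 7.13, 7.15 and 6.91 at 3 h, 7.39, 7.10 and 7.13 at 6 h, and 7.20, 7.59 and 7.47 at 12 h. Here all berberine arrays lay above those of DMSO, and the log2 change at 12 h was 0.91 ± 0.23 (SE, adjusted p = 0.00881 over all kept probe sets). The mean of both probe sets gave 0.11 at 6 h (adjusted p = 0.624) and 0.35 at 12 h (adjusted p = 0.041). A direction for Fosl2 therefore holds for a probe set and not for the gene.

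Fosb could not be measured: its arrays had 2.63, 5.69 and 3.90 with DMSO, 2.75, 4.73 and 3.46 at 3 h, 5.17, 4.06 and 3.63 at 6 h, and 5.70, 5.29 and 2.78 at 12 h. All of these lie under the threshold of 5.77 and overlap between groups, so no fold is given.

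**Figure D3:**
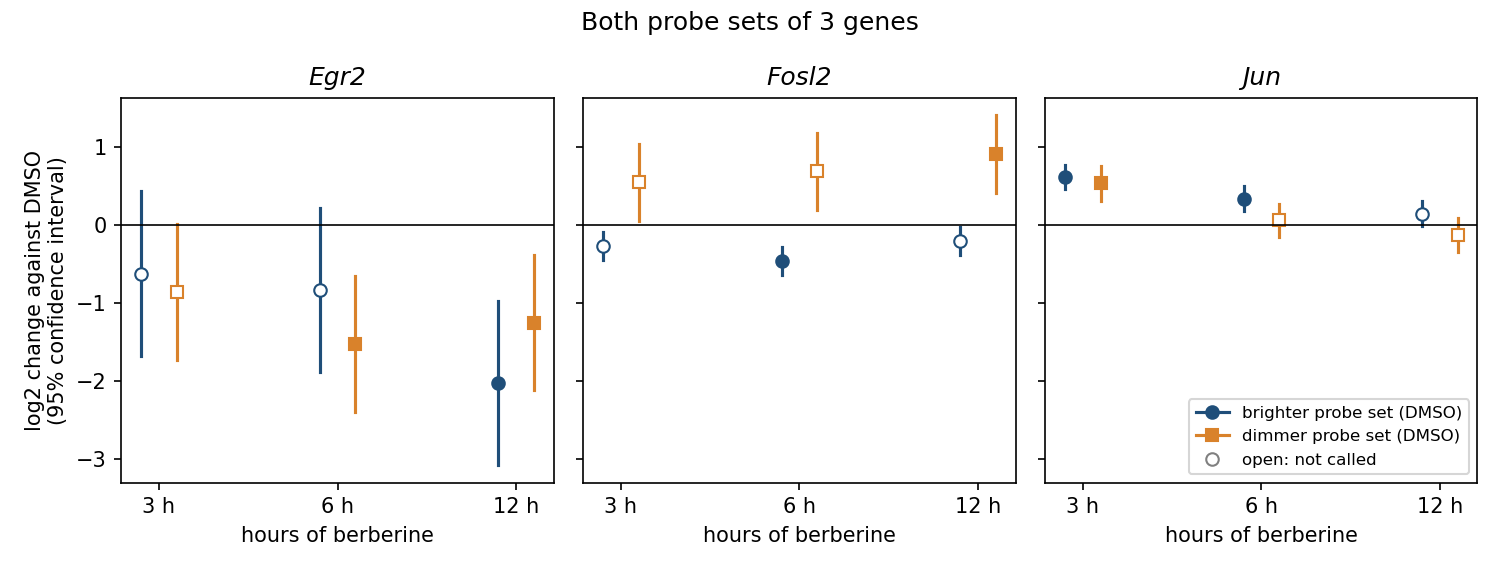
Log2 change against DMSO (y axis, with 95% confidence intervals) at 3, 6 and 12 h for both probe sets of Egr2, Fosl2 and Jun, from limma over all kept probe sets; filled symbols were called. The probe sets of Egr2 lie on the same side of 0 at each time, those of Fosl2 on opposite sides, with -0.46 against 0.69 at 6 h, and those of Jun at 0.61 and 0.53 at 3 h.

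Ier3, an early response gene that acts in cell survival, went down and then up. It had 9.91, 9.72 and 9.57 with DMSO, 9.19, 9.26 and 9.55 at 3 h, 9.37, 9.33 and 9.42 at 6 h, and 10.01, 10.21 and 10.03 at 12 h. The 12 h arrays lay above all others, those of 3 and 6 h below DMSO, and 3 and 6 h overlapped. Between 6 and 12 h Ier3 rose 1.64-fold (log2 change 0.71 ± 0.11 SE, adjusted p = 0.000733; 5.69% of all genes were called in this contrast), and between 3 and 12 h 1.68-fold (0.75 ± 0.11, adjusted p = 0.000105).

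Against DMSO the differences of Ier3 were smaller. It was 1.28-fold lower at 6 h (-0.36 ± 0.11, adjusted p = 0.0326) and 1.27-fold higher at 12 h (0.35 ± 0.11, adjusted p = 0.0215), and -0.40 at 3 h was not called (adjusted p = 0.0708). The 6 h call ended without DMSO replicate 1 or 2 or any of the 6 h replicates, with adjusted p of 0.165, 0.0614, 0.0735, 0.0996 and 0.0564. It also ended without the intensity trend (adjusted p = 0.0814). The 12 h call was lost on leaving out DMSO replicate 2 or 3 or 12 h replicate 2, with adjusted p of 0.0506, 0.107 and 0.1. Without the intensity trend the 12 h call was lost too (adjusted p = 0.0526). At 3 h Ier3 was called when DMSO replicate 3 was left out (adjusted p = 0.0364), and likewise for 3 h replicate 3 (0.0295).

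Myc, the growth regulator, had 9.95, 10.21 and 10.15 with DMSO, 9.78, 9.78 and 9.91 at 3 h, 9.76, 9.67 and 9.56 at 6 h, and 9.47, 9.48 and 9.64 at 12 h. Every berberine array lay below every DMSO array, with the group means in the order DMSO, 3 h, 6 h and 12 h. Myc fell 1.36-fold at 6 h (log2 change -0.44 ± 0.09 SE, adjusted p = 0.00372) and 1.49-fold at 12 h (-0.57 ± 0.09, adjusted p = 0.000133), and -0.28 at 3 h was not called (adjusted p = 0.144). Neighbouring times did not differ past the threshold (adjusted p = 0.43 for 6 against 3 h and 0.46 for 12 against 6 h). The fall from 3 to 12 h, by 0.29 on the log2 scale, had an adjusted p of 0.0322. It ended without 3 h replicates 1, 2 and 3 or 12 h replicates 1 and 2, with adjusted p of 0.0582, 0.0571, 0.125, 0.105 and 0.102. Without the intensity trend that fall was not called either (adjusted p = 0.0556).

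Immediate early genes outside the 10 moved in both directions. Of 25 further ones 23 were tested, of which 6 rose and 0 fell at 3 h, 9 rose and 4 fell at 6 h, and 8 rose and 4 fell at 12 h. Their median log2 changes were 0.13, 0.22 and 0.25, against 0.02, 0.01 and -0.01 for all genes, of which 1.90%, 14.2% and 28.2% were called; these shares are also the background for the counts of the lists that follow. Atf3, a stress-induced partner of JUN proteins, had log2 signals of 6.54, 6.63 and 5.77 with DMSO and 9.37, 9.55 and 9.71 at 12 h, with a change of 3.23 ± 0.21 (SE, adjusted p = 9.62e-09). Ccn1, a secreted matrix protein and SRF target, rose 2.05-fold at 6 h (adjusted p = 0.00242, or 0.187 with the mean of its probe sets). Rhob, a small GTPase, fell 1.88-fold at 12 h (adjusted p = 4.05e-06). Jund, the third JUN gene, rose 1.67-fold at 12 h (log2 change 0.74 ± 0.10 SE, adjusted p = 2.46e-05). Atf3, Jund and Maff also stand in the list of AP-1 partners, so they are counted in both lists.

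**Figure D4:**
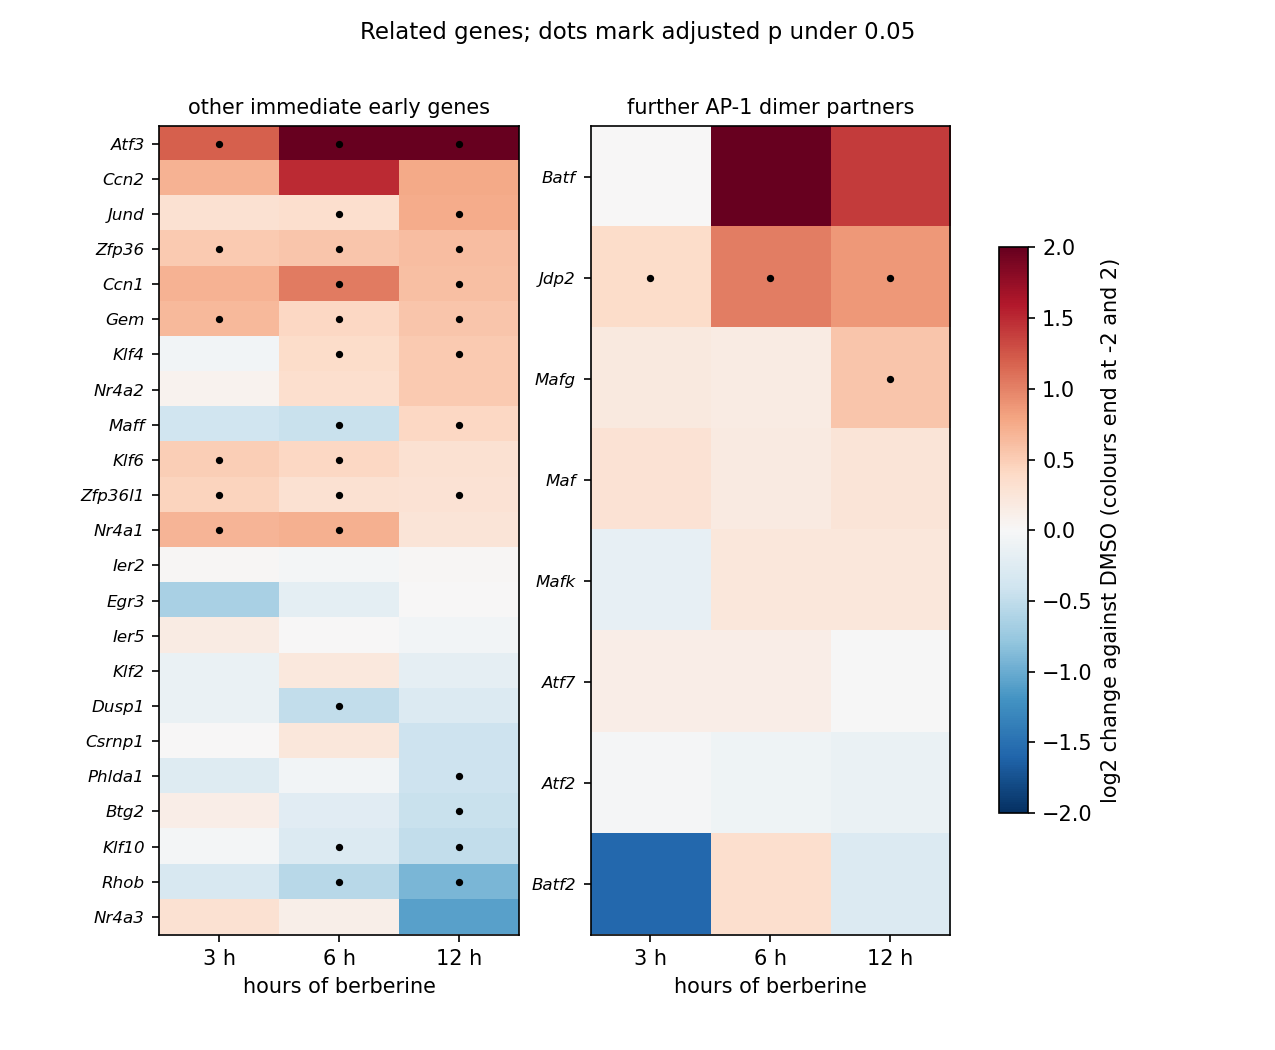
Log2 change against DMSO (colour, ending at -2 and 2) at 3, 6 and 12 h (columns) for the 23 tested further immediate early genes and the tested AP-1 partners that are not among them (rows, ordered by the 12 h change). Dots mark an adjusted p under 0.05 by limma; Atf3, Gem, Zfp36, Zfp36l1 and Jdp2 carry a dot at every time, and Maff goes from -0.44 at 6 h to 0.42 at 12 h.

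Among 13 genes for AP-1 partners other than the FOS and JUN genes above, 11 were tested; 2 rose at 3 h, 3 rose and 1 fell at 6 h, and 5 rose at 12 h (median log2 changes 0.13, 0.23 and 0.42). Jdp2, a JUN dimerization protein that represses AP-1 targets, had 10.45, 10.54 and 10.43 with DMSO and 11.46, 11.53 and 11.49 at 6 h. It rose 1.29-fold, 2.03-fold and 1.82-fold at 3, 6 and 12 h (adjusted p = 0.00621, 3.45e-08 and 6.09e-08). Mafg, a small MAF protein, rose 1.47-fold at 12 h (adjusted p = 0.000508, or 0.111 with the mean of its probe sets). At 12 h, then, Jund, Jdp2 and Atf3 were higher than with DMSO, whereas Jun was not called.

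Among the regulators known to act upstream, of 10 SRF, ETS and CREB regulators, all tested, 1 rose at 3 h, 0 changed at 6 h and 3 rose at 12 h, which is near the 28.2% of all genes called at 12 h. Crem, a cAMP-responsive modulator, rose 1.64-fold at 12 h (adjusted p = 0.00195, or 0.489 with the mean of its probe sets). Creb1, the cAMP-responsive activator, rose 1.29-fold at 12 h (adjusted p = 0.00352). Mrtfb, a coactivator of SRF, rose 1.43-fold at 12 h in its brightest probe set (adjusted p = 0.000112), whereas the mean of its probe sets changed by -0.46 (adjusted p = 0.56). Of 20 MAP kinase pathway genes 14 were matched on the array and tested; 0 changed at 3 h, 2 fell at 6 h, and 1 rose and 2 fell at 12 h. These counts are near the 14.2% of all genes called at 6 h and under the 28.2% at 12 h. Braf, a kinase at the head of the ERK cascade, rose 1.38-fold at 12 h (adjusted p = 0.000994, or 0.205 with the mean of its probe sets). Map2k3, a kinase that activates p38, fell 1.22-fold at 12 h (adjusted p = 0.00639, or 0.0558 with that mean). Mapk14, which encodes p38 alpha, fell 1.20-fold at 6 h (adjusted p = 0.0221). That call was lost on leaving out DMSO replicate 1 or 3 or 6 h replicate 2 or 3 (adjusted p = 0.0617, 0.0614, 0.0527 and 0.101). It was also lost with the mean of its probe sets (0.334) and without the intensity trend (0.0689).

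Of 15 EGR corepressor genes and known AP-1 or EGR1 targets 12 were matched and tested; 0 changed at 3 h, 2 rose at 6 h and 4 rose at 12 h, and 0 fell at any of these times, again near the 14.2% and 28.2% of all genes called. Ptgs2, the inducible cyclooxygenase, had a log2 change of -0.46 at 3 h (adjusted p = 0.453) and rose 2.39-fold at 12 h (adjusted p = 0.00128). Plaur, the urokinase receptor, rose 2.25-fold at 12 h (adjusted p = 0.00655), and Mmp3, the metalloproteinase stromelysin, 1.47-fold (adjusted p = 0.00241). Timp1, an inhibitor of metalloproteinases, rose 1.37-fold at 12 h (adjusted p = 0.00124).

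In the MYC network 11 of 12 genes were tested. Of these 1 fell at 3 h, 3 fell at 6 h, and 6 fell and 1 rose at 12 h (median log2 changes -0.13, -0.27 and -0.35). Mxi1, which competes with MYC for MAX, fell 1.37-fold, 1.59-fold and 1.28-fold at the 3 times (adjusted p = 0.00688, 5.26e-05 and 0.0046). With the mean of its probe sets the 3 h and 12 h calls ended (adjusted p = 0.443 and 0.548). The 3 h call also ended without the intensity trend (adjusted p = 0.0661). Mxd1, another MAX partner, fell 1.61-fold at 12 h (adjusted p = 0.000477, or 0.271 with the mean of its probe sets). Mxd4, also a MAX partner, fell 1.42-fold at 12 h (adjusted p = 7.32e-05, or 0.106 with that mean). Mxd3 fell 1.83-fold at 12 h in its brightest probe set (adjusted p = 0.0156), a call that ended without DMSO replicate 2 or 12 h replicate 2 (adjusted p = 0.0885 and 0.0824), and the mean of its probe sets changed by 0.20 (adjusted p = 0.822). Of 10 genes known as MYC targets, 0 changed at 3 h, 3 rose and 1 fell at 6 h, and 3 rose and 3 fell at 12 h. Odc1, the polyamine synthesis enzyme, rose 1.78-fold at 12 h (adjusted p = 1.33e-06) while Ldha, lactate dehydrogenase, fell 1.73-fold (adjusted p = 1.09e-06). Nop56, a nucleolar protein, and Nme1, a nucleotide kinase, fell 1.29-fold and 1.26-fold at 12 h (adjusted p = 0.00795 and 0.00103), and Nop56 was not called with the mean of its probe sets (adjusted p = 0.207).

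For each of the 7 genes called by the F test, the 3 nearest profiles among all genes tested were found as the smallest root mean square difference over 12 arrays, each gene centred on its DMSO mean. Nearest to Jun was Usp53, at 0.11 on the log2 scale, followed by Cxcl5 and Mertk at 0.13 and 0.14. Ier3 was nearest to Maff at 0.13, an immediate early gene with log2 changes of -0.40, -0.44 and 0.42 at 3, 6 and 12 h. Egr1 was nearest to Slc25a29 (0.13), Phtf2 (0.14) and P4ha1 (0.15), and Myc to Ptpn4 (0.07), Skp2 (0.08) and Hexim1 (0.09). The profile of Fosl1 lay 0.40 from Ppp1r3b, 0.46 from Dusp6 and 0.48 from Ppp1r3c, all with log2 changes of -0.92 or lower at each time. The distance of Egr2 to its nearest gene, Angptl1, was 0.44, and that of the bright Fosl2 probe set to Prpf4b 0.07.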

How the data were processed

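Expression was measured on 12 single-colour Affymetrix 3' arrays, 3 per group; groups and replicate numbers come from the labels. The values analysed are log2 signals as deposited by the authors. The submitters' processing notes name MAS5 without a version, and the build behind the array's probe sets is not given in the sources used here. Of 45037 non-control probe sets 34945 had 1 symbol, 932 several and 9160 none. No symbol changed when updated through Entrez identifiers, and none of the 14 probe sets of the 10 genes ends in _x_at.

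Groups were compared with limma 3.58.1 in R 4.3.3, with a mean per group over 12 arrays (8 residual degrees of freedom), a variance prior that follows intensity, two-sided tests, and Benjamini-Hochberg adjustment over 12136 genes. The scripts were tested on simulated data. Folds are ratios of geometric mean signals, and "at least" folds use values raised to the threshold. Figures used Python 3.11.15 and matplotlib 3.10.9. All 10 genes are given, and of each related list up to 4 genes called in any contrast with DMSO, by largest change. The members and lists were chosen with earlier results of these data known. Alternatives were quantile normalization, no intensity trend, no filter and dim values raised to the threshold. Others were the mean of probe sets, every kept probe set, a replicate block and each array left out. With every kept probe set, a gene was read from the one with the smallest p, which favours keeping a call.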

Additional observations from a re-analysis of the deposited data

Results flagged for a closer look

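Arrays of different berberine exposure times were compared directly by limma. The labels give no DMSO group for each time, so longer exposure and time in culture cannot be told apart. In log2 units as given below, 31 differences between times were called at an adjusted p under 0.05. Of these 12 kept the call in all 19 settings (7 alternatives and 12 omissions of an array). Jun differed by -0.47 between 3 and 12 h. Ier3 was higher at 12 h than at 6 h by 0.71 and than at 3 h by 0.75. Between 3 and 12 h Atf3 also differed by 2.04, Jdp2 by 0.50, Jund by 0.44, Ptgs2 by 1.72, Odc1 by 0.51, Rhob by -0.58 and Ldha by -0.71. Jdp2 differed by 0.65 between 3 and 6 h, and Ldha by -0.52 between 6 and 12 h.

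The other 19 lost the call in at least 1 setting. Jun differed by -0.28 between 3 and 6 h, lost in 14 settings, and Myc by -0.29 between 3 and 12 h, lost in 6. With every kept probe set Jun kept this call through its second probe set (adjusted p = 0.0291), not its brightest (0.0667). The difference of Atf3 between 3 and 6 h, 1.22, was not called without the intensity trend (adjusted p = 0.0633). That of 0.82 between 6 and 12 h was lost without the trend (0.108) and without 6 h replicate 1 or 2 or 12 h replicate 2 or 3 (0.0829, 0.123, 0.0813 and 0.11). Jund differed by 0.40 between 6 and 12 h, lost without the trend (0.109) and without 6 h replicate 1 or 2 or 12 h replicate 3 (0.104, 0.0911 and 0.112). Ptgs2 differed by 1.36 between 3 and 6 h, lost without 6 h replicate 3 (0.0659). Odc1 differed by 0.45 between the same times, lost in 6 settings, among them 3 h replicates 1 and 3 and 6 h replicates 2 and 3 left out.

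With the mean of probe sets the call was lost for several genes. Between 3 and 12 h Crem went from 0.56 to 0.17 (adjusted p = 0.678), Braf from 0.34 to 0.13 (0.751), Mafg from 0.35 to 0.17 (0.438), Mxd1 from -0.59 to -0.34 (0.0765) and Mxd4 from -0.37 to -0.09 (0.659). Crem, Braf and Mafg also lost it on leaving out single 3 h or 12 h arrays, with adjusted p of 0.0509 to 0.11. Creb1 differed by 0.29, lost in 7 settings, Nop56 by -0.30, lost in 10, and Nme1 by -0.23, lost in 4, each of these 3 among others without the trend and without 12 h replicate 3. Between 6 and 12 h Braf differed by 0.33, Mafg by 0.40, Mxi1 by 0.32 and Nme1 by -0.28. These were lost in 11, 7, 6 and 5 settings, all 4 of them with the mean of probe sets, without the trend, and without 12 h replicate 3 or 6 h replicate 2.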

How the results depend on the processing

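Of 16 called changes of the 9 tested genes, 9 kept direction and call under 7 alternatives and 12 omissions of an array: Egr1 and Myc at 6 and 12 h, Egr2 at 12 h and Jun at 3 h, each against DMSO, Jun at 12 h against 3 h, and Ier3 at 12 h against 3 and 6 h. The other 7 lost the call in at least 1 setting, and 9 uncalled changes gained it in some setting. The count of genes called at 6 h against 3 h was 0 with quantile normalization, without the intensity trend, without the filter and with the replicate block. That at 12 h against DMSO was 3 without the trend, and that at 6 h was 3 with the mean of probe sets. With that mean the change of Fosl2 was 0.11 at 6 h and 0.35 at 12 h, that of Mrtfb at 12 h -0.46 and that of Mxd3 0.20; the dim Fosl2 probe set alone gave 0.91 at 12 h. Atf3 at 3 h was not called without the trend (adjusted p = 0.0643). Beyond the probe sets themselves the causes were not tested. Leaving out 1 array gave 1 to 2 genes called at 3 h, 4 to 6 at 6 h, 4 to 6 at 12 h, 0 to 1 for 6 against 3 h, 1 for 12 against 6 h, 2 to 4 for 12 against 3 h and 5 to 8 by the F test. Over all genes, 231 were called at 3 h, but 93 without the trend, 114 with the mean of probe sets, and 117, 137 and 126 without DMSO replicate 1 and 3 h replicates 1 and 2; for 6 against 3 h the 284 became 60 without the trend and 146 with the mean of probe sets, and 85 to 116 without any 1 of the 3 h replicates or of 6 h replicates 2 and 3. For 12 against 6 h 690 became 296 without the trend and 376 to 450 without any 1 of 6 h replicates 1 and 2 or of the 12 h replicates, and at 6 h 1726 became 1099 with the mean of probe sets and 1116 and 1140 without DMSO replicate 1 and 6 h replicate 2. With every kept probe set 5439 of 21706 were called at 12 h, against 3426 genes.

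Replicate numbers did not pair the arrays: same-numbered arrays of different groups correlated at -0.04 to 0.03 over 18 pairs, and 4 of 12 arrays correlated best with their own number. With the replicate block 221, 1713 and 3398 genes were called at 3, 6 and 12 h, and of the 16 calls the fall of Jun from 3 to 6 h was lost (adjusted p = 0.0528). Signal near the threshold limits Junb, Egr2, Fosb and, at 5.66 to 7.07 with berberine, Fosl1.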
